A study of Mus musculus with 9 samples.

Results

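The 3 arrays of brown fat cells treated with DMSO alone, the solvent control of a study of compounds that activate PPARGC1A, give the baseline expression profile of these cells. They are 3 of the 9 arrays of the series, and the other 6 carry RNA of cells given a compound. The cells came from C57BL/6 mice, had been differentiated in culture into brown fat cells by a method published before, and received DMSO for 8 h. The labels give no sex and no age, and do not say whether the cells were a primary culture or an immortalised line. No value below compares DMSO with a compound. All gene-level features with a symbol were taken, with 1 transcript cluster (the set of probes that reads 1 transcript) per gene, which gave 30860 genes ranked by the mean of the 3 arrays.

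Brown adipocytes burn fat to make heat. Noradrenaline acts on beta-adrenergic receptors, cAMP and protein kinase A release fatty acids from the lipid droplet, and mitochondria oxidise them while the uncoupling protein UCP1 lets protons leak across the inner membrane. The receptor PPARG drives the fat cell programme as a whole, and the coactivator PPARGC1A, with EBF2 and PRDM16, is known for the brown part of it.

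Signals are log2 values after the authors' normalization. A gene's signal depends on how well its probes bind as well as on its RNA, so the ranks are ranks of brightness and not of transcript number. To mark where signal cannot be told from background, the 1436 olfactory and vomeronasal receptor genes, which are used in the nose, were taken as a yardstick. Their median was 1.96, and the 95th percentile, 2.94, served as the background floor. Of the 30860 genes, 14455 (46.8%) had a mean above this floor, and 13379 were above it on every array. The gene just above the floor had 2.95 and the one just below it 2.94. The median over all genes was 2.82 and the highest mean 12.91. The brightest 10% were 3094 genes, with means of 6.98 or more, and the next gene below had 6.98 as well at this rounding. These shares, 46.8% and 10%, are the background against which each list below is read. Most lists hold protein-coding genes, for which the shares were higher. Of 20325 protein-coding genes, 58.4% were above the floor and 13.9% in the brightest 10%, so list shares are to be set beside these too.

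**Figure D1:**
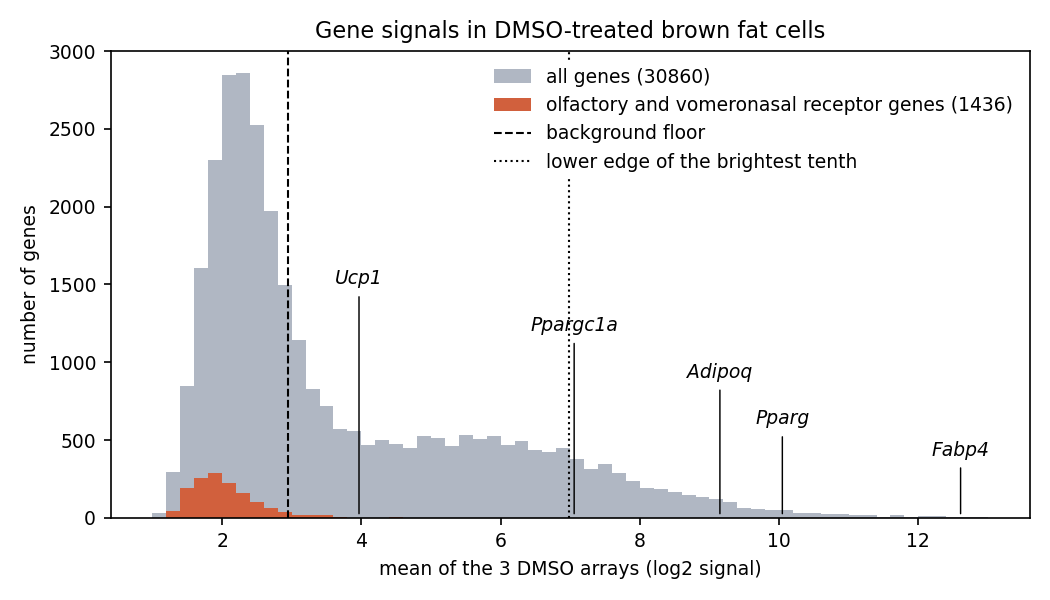
Number of genes (vertical axis) by mean log2 signal of the 3 DMSO arrays (horizontal axis), for all genes in grey and for olfactory and vomeronasal receptor genes in orange, with the background floor dashed and the lower edge of the brightest 10% dotted. Most receptor genes lie left of the floor at 2.94, and the 5 labelled fat cell genes lie to its right, Ucp1 nearest to it at 3.97 and Fabp4 farthest at 12.61.

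The label of these cells was checked against 5 markers. Fabp4, the fatty acid binding protein of fat cells, had 12.66, 12.52 and 12.64 on replicates 1, 2 and 3, which made it the gene of rank 9. Adipoq, which encodes the fat hormone adiponectin, had 9.19, 9.15 and 9.11, at rank 562. Pparg had 10.30, 10.04 and 9.80, at rank 257. These 3 general fat cell genes were bright on every array, and Adipoq varied least, by 0.08. Ppargc1a had 7.31, 7.19 and 6.67, at rank 2928, just inside the brightest 10%, and its value on replicate 3 was below the lower edge of 6.98. Ucp1 had 3.54, 3.80 and 4.56, a mean of 3.97 ± 0.53 (SD, n = 3) at rank 10353. Ucp1 was above the floor on all 3 arrays, highest on replicate 3, and below 6.98 on each. Its mean was below 4.56, the 95th percentile of the array's intron control features. The markers thus matched a fat cell label, while the gene best known for heat production in brown fat was dim.

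The promoters of these markers are shown because they cover most of the range of CG content described next. The sequences are RefSeq's, build GRCm38.p6, from 250 bases before to 50 bases after the annotated start, and capitals mark each CG. Adipoq lies at chr16:23146286-23146585 on the + strand and holds 0 CG. For Pparg, 3 starts are listed, of which the first, at chr6:115360894-115361193 on the + strand, holds 44 CG, and the last, at chr6:115421816-115422115, holds 2. Ucp1, at chr8:83290098-83290397 on the + strand, holds 15, and Ppargc1a, at chr5:51567676-51567975 on the - strand, holds 5. Fabp4 is not shown.
Adipoq: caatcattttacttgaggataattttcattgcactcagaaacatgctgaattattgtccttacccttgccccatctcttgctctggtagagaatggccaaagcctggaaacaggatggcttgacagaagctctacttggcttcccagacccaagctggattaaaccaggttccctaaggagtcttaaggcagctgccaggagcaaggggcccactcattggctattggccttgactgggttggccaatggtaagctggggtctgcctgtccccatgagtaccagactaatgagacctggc
Pparg first start: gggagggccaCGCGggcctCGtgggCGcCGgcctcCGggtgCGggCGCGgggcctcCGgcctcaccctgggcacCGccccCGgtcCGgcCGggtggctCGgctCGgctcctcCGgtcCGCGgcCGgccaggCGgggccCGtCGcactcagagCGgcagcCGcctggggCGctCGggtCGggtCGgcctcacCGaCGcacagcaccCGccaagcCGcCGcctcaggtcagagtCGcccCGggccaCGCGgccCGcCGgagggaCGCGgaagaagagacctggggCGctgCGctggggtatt
Pparg last start: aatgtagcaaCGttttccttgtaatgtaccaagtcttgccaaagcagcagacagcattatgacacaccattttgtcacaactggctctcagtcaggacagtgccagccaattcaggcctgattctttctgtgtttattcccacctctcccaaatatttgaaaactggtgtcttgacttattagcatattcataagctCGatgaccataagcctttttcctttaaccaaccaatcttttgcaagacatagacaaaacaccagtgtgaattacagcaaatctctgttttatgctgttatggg
Ucp1: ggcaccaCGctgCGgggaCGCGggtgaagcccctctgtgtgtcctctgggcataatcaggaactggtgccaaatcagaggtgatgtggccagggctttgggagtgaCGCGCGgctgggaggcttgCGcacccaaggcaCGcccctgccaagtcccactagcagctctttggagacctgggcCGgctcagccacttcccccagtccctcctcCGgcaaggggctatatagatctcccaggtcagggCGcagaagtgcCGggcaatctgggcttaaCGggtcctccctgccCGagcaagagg
Ppargc1a: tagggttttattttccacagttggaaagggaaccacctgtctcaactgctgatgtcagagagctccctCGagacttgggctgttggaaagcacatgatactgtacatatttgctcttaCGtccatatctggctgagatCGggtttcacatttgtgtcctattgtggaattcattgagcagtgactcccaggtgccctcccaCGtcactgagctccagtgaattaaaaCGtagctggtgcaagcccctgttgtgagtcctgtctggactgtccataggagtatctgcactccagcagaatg

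CG letters are common in the promoters of genes used by most cells and rare in many tissue-specific ones. Over all protein-coding genes with a listed promoter (16270 of 20325, the first listed start of each), the median was 14 CG per 300 bases. It was 24 for the 2273 genes of the brightest 10%, 20 for the 7286 other genes above the floor, and 4 for the 6711 genes not above it. Fewer than 10 CG were present in 9.11% of the brightest, 20.4% of the other genes above the floor and 72.1% of those not above it. Bright fat genes fell on both sides, since the promoter of Fasn held 39 CG and those of Plin1, Retn and Cd36 held 2, 2 and 3. The 50 bright members of the lipid and adipokine lists with a promoter had a median of 16 CG and 36.0% with fewer than 10. The 86 bright members of the respiratory, citric acid, translation and proliferation lists had 21.5 CG and 5.81%.

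The letters TATAA on the gene's own strand, starting 36 to 24 bases before the start, were present in 4.17% of all these promoters. The share was 2.11% in the brightest 10%, 2.21% in the other genes above the floor and 7.0% in those not above it. GGGCGG, the core of the Sp1 motif, searched on both strands, was present in 48.6% of all promoters. It was found in 70.0% of the brightest, 63.1% of the other genes above the floor and 25.5% of those not above it. CCAAT, also searched on both strands, differed little, at 41.9%, 38.5% and 38.2% in the same order and 38.9% over all. GGGCGG holds a CG, so its share and the CG count are not separate readings. These motifs were picked after signals were seen, TATAA after TATAAA had given no hit in the promoters viewed, and a match is a description of letters only.

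The 30 brightest named genes fell into a few kinds. First in signal among them was Rn7sk, a small nuclear RNA that holds back transcription elongation, at 12.86. Mitochondrially encoded genes made up 10 of the 30, from mt-Nd4 at 12.84, mt-Co1 at 12.68 and mt-Nd1 at 12.46 to mt-Co2 at 12.03, with the transfer RNA mt-Tl1 among them at 12.35. Lipid genes were Fabp4, the desaturases Scd1 at 12.58 and Scd2 at 12.26, and Lpl, the lipoprotein lipase, at 11.96. Car3, a carbonic anhydrase abundant in fat, had 12.50, 12.34 and 12.18. The nuclear mitochondrial genes Cox6a1, Atp5b, Ndufb9, Vdac3 and Acadm had means of 12.32, 11.99, 11.84, 12.01 and 11.78. Fth1, the ferritin heavy chain, had 12.38, B2m, the light chain of MHC class I, 12.32, and Hp, the plasma protein haptoglobin that fat also secretes, 11.72. Gapdh, Eef1a1, Rpl21, Pcbp2 and the histone genes H2ac18 and H2ac23 completed the 30. Up to the last of them 44 genes were passed, and 14 were left out as ribosomal, small nucleolar, microRNA or predicted symbols.

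The array does not place every cluster at the gene whose name it bears, and which RNA bound its probes was not tested. The array's cluster lay outside the RefSeq gene of its name in 391 of 24047 genes with both positions, and in 118 of 2924 (4.04%) of the brightest 10%. Among the 29 brightest named genes that could be placed, this held for 6. The Gapdh cluster lies on chromosome 4 although the gene is on chromosome 6, and the Vdac3 cluster on chromosome 14 although the gene is on chromosome 8. Eef1a1 and Rpl21 were likewise placed on other chromosomes, and mt-Nd4l and mt-Atp8 on chromosome 1. The annotation also gives the probes of 8 of the 30 as cross-hybridising. These are Rn7sk, Gapdh, Eef1a1, Rpl21, H2ac18, H2ac23, mt-Nd4l and mt-Atp8. The 5 marker genes were placed at their own loci, with probes that are not cross-hybridising.

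Lipid handling was bright in nearly all of its steps. For fatty acid synthesis, 21 of 22 genes were above the floor and 18 were in the brightest 10%, with a median of 9.52, against 2.82 over all genes. Fasn, the fatty acid synthase, had 11.56, 11.58 and 11.55. Thrsp, which raises lipogenesis, had a mean of 11.30, Hacd2, an enzyme of fatty acid elongation, 11.21, and Me1, which supplies NADPH, 10.87. Acaca, the acetyl-CoA carboxylase that makes malonyl-CoA, had 9.41, 9.40 and 9.03, and Acacb, its mitochondrial counterpart, had 5.74, 5.96 and 5.92. Elovl3, an elongase typical of brown fat, had 8.38, 8.47 and 8.46. The dimmest members were Acacb, Scd3 at 5.39 and Scd4, which was not above the floor at 2.49. The synthesis genes differed little between arrays, by a median range of 0.20, while the median range over all genes above the floor was 0.32.

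Fatty acid uptake was more divided, with 17 of 21 genes above the floor and 6 in the brightest 10%. Lpl had 12.08, 11.99 and 11.80, Cd36, the fatty acid translocase, 11.25, 10.98 and 10.66, and Acsl1, the acyl-CoA synthetase of fat, 11.24, 11.11 and 10.99. Each of these 3 was lowest on replicate 3. Fabp5 had a mean of 10.62 and Acsl4 7.54. Gpihbp1, which holds the lipase on capillary endothelium, was not above the floor at 2.69, nor were the liver and intestine proteins Slc27a2, Fabp1 and Fabp2. Fabp3, the heart and muscle fatty acid binding protein that brown fat also uses, had 4.95, 4.55 and 4.97. So within 1 protein family the fat cell member Fabp4 was among the brightest genes and the intestinal member was at background.

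Triglyceride assembly had 17 of 19 genes above the floor and 11 in the brightest 10%. Gpd1, which makes glycerol 3-phosphate, had 11.63, 11.60 and 11.71, Dgat2 had a mean of 10.58, Agpat2 10.51, Gpam 9.70, Lpin1 9.38 and Dgat1 9.32. These enzymes cover the path from glycerol 3-phosphate to triglyceride. Pck1, an enzyme of glyceroneogenesis in fat, had 4.86, 4.75 and 4.86. Gk, the glycerol kinase, had 5.58, 5.68 and 4.91. The monoacylglycerol pathway enzyme Mogat2 was not above the floor at 2.75, nor was Gpat2 at 2.35.

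The coat of the lipid droplet had 17 of 19 genes above the floor and 11 in the brightest 10%. Cidec, which drives droplet fusion, had 11.00, 11.01 and 11.14, Plin2 had a mean of 9.76, Cav1 9.18, Fitm2 9.16 and Aqp7, a glycerol channel, 8.92. Plin1, the perilipin of mature fat cells, had 8.49, 8.66 and 9.08. Plin5, the perilipin that ties droplets to mitochondria in oxidative tissue, had 5.18, 5.86 and 6.68, a range of 1.50, the widest of this list. Cidea, the brown fat member of the CIDE family, had 3.50, 4.51 and 4.41. Cidec was thus bright and steady, while Plin5 was lowest on replicate 1 and highest on replicate 3 and Cidea lowest on replicate 1.

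Lipolysis had 11 of 12 genes above the floor and 8 in the brightest 10%. Pnpla2, the lipase ATGL, had 9.84, 9.86 and 10.04. Its inhibitor G0s2 had 9.87, 9.75 and 10.04, and its activator Abhd5 9.48, 9.43 and 9.24. Mgll, the monoacylglycerol lipase, had a mean of 7.72, Lipe, the hormone-sensitive lipase, 7.03, Aqp7 8.92, Lipa, the lysosomal lipase, 8.61, and Pnpla3 8.10. Pnpla8 had 6.89, Abhd6 6.61 and Ces1d 3.34. Ces1f, a carboxylesterase, was not above the floor at 2.76. The lipase, its activator and its inhibitor were all bright, with ranges of 0.20, 0.24 and 0.29.

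**Figure D2:**
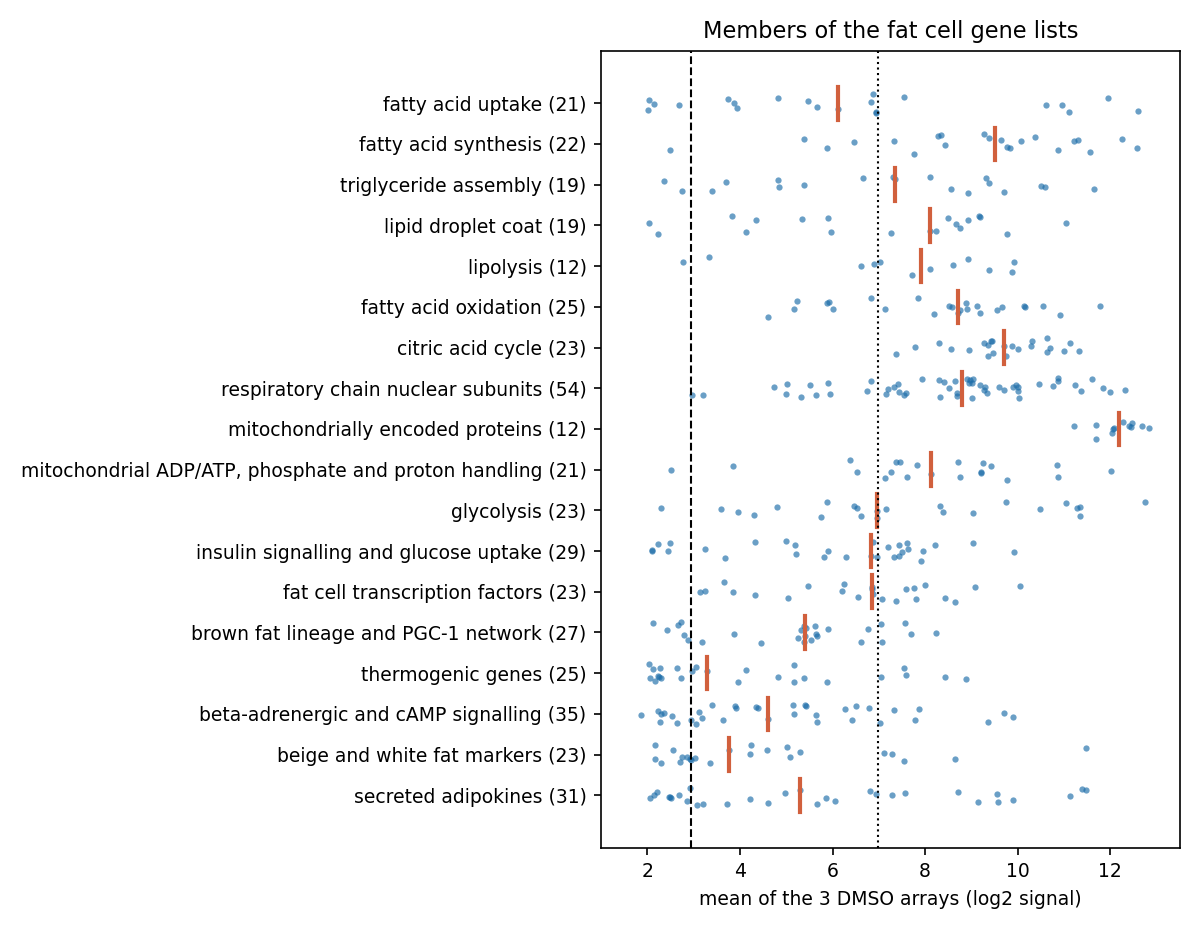
Mean log2 signal of the 3 DMSO arrays (horizontal axis) for each gene (blue point) of 18 gene lists (rows, number of genes in brackets), with the median of each list as an orange bar, the background floor dashed and the lower edge of the brightest 10% dotted. All citric acid cycle genes lie right of the dotted line and their median is 9.70, while the median of the thermogenic genes is 3.29, close to the floor.

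The mitochondrially encoded proteins and the citric acid cycle had the highest medians of the 40 lists, 12.19 and 9.70. Of the 23 citric acid cycle genes, all 23 were in the brightest 10%. Mdh2, the malate dehydrogenase, had 11.20, 11.36 and 11.44, and Cs, the citrate synthase, 10.61, 10.66 and 10.64. Idh3b, Idh3a and Idh3g, the 3 subunits of the NAD-dependent isocitrate dehydrogenase, had means of 11.00, 10.70 and 10.63. The dimmest were Sdhc at 8.31, Suclg1 at 7.77 and Sucla2 at 7.38. Their median range was 0.11, and the widest was 0.54, that of Sucla2.

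Of 54 nuclear genes of the respiratory chain, all 54 were above the floor and 42 were in the brightest 10%, with a median of 8.80. Cox6a1 had 12.26, 12.30 and 12.41, Atp5b, the beta subunit of ATP synthase, a mean of 11.99, and Ndufb9, a complex I subunit, 11.76, 11.83 and 11.92. Cycs, cytochrome c, had 11.60, Atp5h 11.38 and Atp5a1 11.24, the first 2 of them from cross-hybridising clusters outside the gene. In all, 7 of the 54 were placed outside their gene. Of 2 subunits that replace a common form in muscle and brown fat, Cox7a1 had 7.20, 7.46 and 7.98. Cox8b had 3.03, 2.88 and 2.96, a mean at the floor, while the common form Cox8a had 10.72, 10.75 and 10.84. The dimmest others were Atp5g1 at 3.20 and Uqcrq at 4.73.

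The 12 mitochondrially encoded proteins measured were all in the brightest 10%, from 11.22 for mt-Nd6 to 12.84 for mt-Nd4, and 2 of them, mt-Nd4l and mt-Atp8, were placed on chromosome 1. mt-Nd6, the only one of them encoded on the light strand, was the dimmest and had 11.04, 11.09 and 11.52. Of 21 genes for carriers and membrane proteins of mitochondria, 20 were above the floor and 17 in the brightest 10%. Among them, Slc25a5, an ADP/ATP carrier, had 10.85, Mpc1, a subunit of the pyruvate carrier placed outside its gene, 10.87, and Vdac1, the outer membrane channel, 9.76. The testis carrier Slc25a31 was not above the floor at 2.50. The widest range of the list was 0.76, that of Dnm1l, a fission protein, with 9.59, 9.20 and 8.83.

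Fatty acid oxidation had 25 of 25 genes above the floor and 18 in the brightest 10%, with a median of 8.71. Acadm, the medium-chain dehydrogenase, had 11.84, 11.86 and 11.64, Hadh had a mean of 10.92, Acadl 10.55, Acot2 10.16, Hadha 10.13 and Etfdh 9.66. Most enzymes inside the mitochondrion were bright, whereas the carnitine palmitoyltransferases of the outer membrane were not. Cpt1a, the liver form, had 5.23 on each array, Cpt1b, the form of muscle and brown fat, 5.11, 5.08 and 5.30, and Cpt1c, the brain form, 4.71, 4.40 and 4.71. Cpt2, the inner membrane partner, had 8.48, 8.46 and 8.62. All 3 Cpt1 genes were below 6.98 on every array, and Cpt2 was above it on every array.

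The thermogenic list was far dimmer than the machinery around it. Of its 25 genes, 15 were above the floor and 5 in the brightest 10%, and the median was 3.29. The 5 were Atp2a2, a calcium pump used in a UCP1-independent cycle, at 8.89, Elovl3 at 8.44, Alpl, a phosphatase placed in the creatine cycle, at 7.60, Cox7a1 at 7.55 and Ppargc1a at 7.06. Ckb, the creatine kinase of the same cycle, had 5.96, 5.64 and 6.01. Ucp2 had 5.04, 5.12 and 5.33, and Ucp3 was not above the floor at 2.25, 2.28 and 2.29. Dio2, the deiodinase that activates thyroid hormone in brown fat, was not above the floor on any array, with 2.21, 1.91 and 2.27. Ryr2, Gatm, Ckmt1, Ckmt2 and Pm20d1 were not above it either. The range was above 1 for Ucp1 (1.02) and Cidea (1.01), and of all 14455 genes above the floor 480 (3.32%) had a range above 1.

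**Figure D3:**
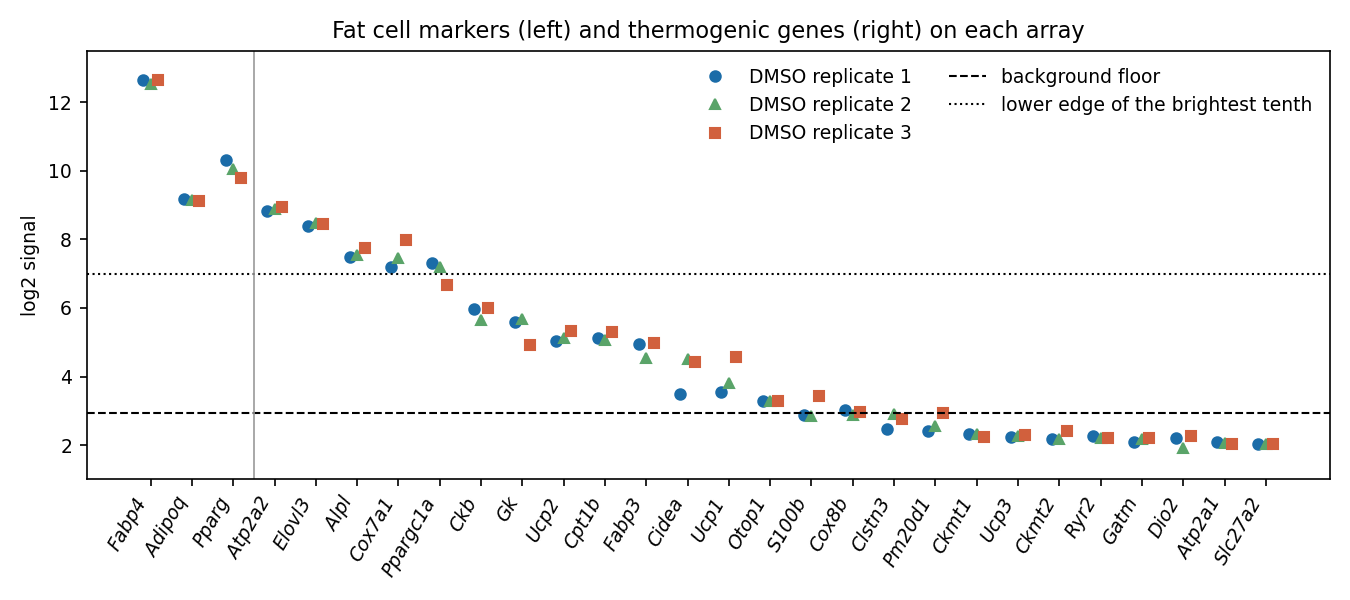
Log2 signal (vertical axis) on each of the 3 DMSO arrays (marker shape and colour) for 3 general fat cell markers (left of the grey line) and the 25 thermogenic genes in order of mean, with the background floor dashed and the lower edge of the brightest 10% dotted. Fabp4, Adipoq and Pparg lie well above the dotted line, and Ucp1 lies between both lines with 3.54, 3.80 and 4.56.

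All 23 fat cell transcription factors were above the floor, and 10 were in the brightest 10%. After Pparg came Srebf1, which drives lipogenic genes, with 9.07, 9.09 and 9.06, and Cebpa, the partner of PPARG in terminal differentiation, with 8.53, 8.56 and 8.85. Nfib had a mean of 8.42, Klf9 8.01 and Ebf1 7.81. Cebpb, which acts early in differentiation, had 7.76, and Rxra, the partner receptor of PPARG, 7.58. Cebpd, another early factor, had 4.32. Gata2 and Gata3, which restrain adipogenesis, had 3.65 and 3.25, and Ppara, the fatty acid receptor of liver and brown fat, had 2.97, 3.40 and 3.03. Klf15 and Nr1h3, both at work in mature fat cells, had 6.87 and 6.24, below the brightest 10%.

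The brown lineage and PGC-1 list had 21 of 27 genes above the floor and 5 in the brightest 10%, with a median of 5.40. Gabpa, a factor for respiratory genes, had 8.50, 8.39 and 7.79, and Rb1, which restrains the brown programme, 8.06, 7.88 and 7.13. Nrip1, a corepressor of the same programme, had a mean of 7.56 and a range of 1.04. Ebf2, which marks brown precursors, had 7.23, 7.32 and 6.68. These 4 and Ppargc1a were each lowest on replicate 3. Prdm16 had 4.42, 4.42 and 4.51, Zic1, a marker of classical brown fat, 5.41, 5.40 and 5.34, and Irf4, a partner of PPARGC1A, 3.81, 4.33 and 3.48. Esrra, the estrogen-related receptor through which PPARGC1A acts on respiratory genes, had 5.17, 5.07 and 5.52, Ppargc1b 5.85, 5.91 and 5.23, and Tfam, the mitochondrial DNA factor, 5.55, 5.75 and 5.55. Not above the floor were Tfb2m, Esrrg, Bmp7, Epsti1, Thrb and Lhx8. Lhx8 had 1.70, 2.01 and 2.64, while Prdm16 and Zic1 were steady with ranges of 0.09 and 0.07.

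Adrenergic and cAMP signalling had 27 of 35 genes above the floor and 7 in the brightest 10%. Among receptors, Adrb3, the receptor typical of fat cells, had 4.40, 4.35 and 4.28, and Adrb1 had 3.94, 3.94 and 3.79. Adra1d had 4.50, 4.50 and 4.81, Adra2a was just above the floor at 3.12, and Adra1a, Adra1b, Adra2b and Adra2c were not above it. Adrb3 and Adrb1 did not overlap across arrays, which is a statement about probe signal. Downstream, Prkaca, the catalytic subunit of protein kinase A, had 9.74, 9.92 and 10.02. Prkar2b, its regulatory subunit in fat, had 9.87, 9.76 and 9.49, and Pde3b, the cAMP phosphodiesterase that insulin activates, 9.47, 9.30 and 9.28. Gnas, which encodes the stimulatory G protein, had only 3.17, 3.13 and 3.24. The other genes of this kinase were Prkar2a at 7.32, Prkacb at 6.42, Prkar1a at 5.42 and Prkar1b at 3.92. Prkaca, Prkar2b and Prkar2a were thus in the brightest 10%, while Prkacb, Prkar1a and Prkar1b were not, and no receptor was.

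Secreted factors covered the whole range of signal. Of 31 adipokine genes, 22 were above the floor and 10 in the brightest 10%, with a median of 5.31. Retn, which encodes resistin, had 11.40, 11.56 and 11.47, C3, complement component 3, 11.39, 11.40 and 11.40, and Lcn2, lipocalin 2, 11.19, 11.12 and 11.11. Rbp4, the retinol binding protein, had a mean of 9.90, Nampt 9.57 and Vegfa 9.56. Cfd, the fat protease adipsin, had 8.66, 8.63 and 8.87. Lep, which encodes leptin, was not above the floor by its mean of 2.85, with 2.79, 2.79 and 2.97. Il6, Tnf, Ptgds, Bmp8b, Slit2, Sfrp5, Itln1 and Nnat were not above it either. Among factors ascribed to brown fat, Fgf21 had 5.72, 5.67 and 5.63, and Nrg4 4.49, 4.23 and 3.93.

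Of 23 markers that have been used to tell beige or white from brown fat, 14 were above the floor and 5 in the brightest 10%. These were Retn, Psat1 at 8.65, Slc36a2 at 7.54, Agt at 7.29 and Hoxc8 at 7.11. Slc36a2 is a transporter that marks brown and beige fat, and Hoxc8 a homeobox gene known for white fat. Of markers of beige cells, Cited1 had 4.24, 4.26 and 4.22, Tmem26 2.99, 2.88 and 3.22, and Tbx1, Klhl13, Tnfrsf9 and Ear2 were not above the floor. Of white fat markers, Dpt had 4.19, 4.32 and 4.11, while Lep and Wt1 were not above it. The list thus had bright members on the brown and on the white side.

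Hox genes keep the body position of the tissue a cell comes from. Of those of cluster A, 7 of 11 were above the floor, of cluster B 7 of 10, of cluster C 4 of 9 and of cluster D 3 of 9. Hoxc8 had 7.23, 7.25 and 6.86, Hoxc6 6.56 on each array, and Hoxa5 6.36, 6.37 and 6.35. Hoxa4 had a mean of 6.34, Hoxa6 5.37 and Hoxa9 5.16. Hoxc9, the neighbour of Hoxc8 and a white fat marker, was not above the floor at 2.58, 2.47 and 2.58, and Hoxc5, next to Hoxc6, was not at 1.94, 2.18 and 2.20. The most posterior genes Hoxa13, Hoxb13, Hoxc13 and Hoxd13 were not above it. Within the C cluster, genes above and at background were interspersed.

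Insulin signalling and glucose uptake had 24 of 29 genes above the floor and 12 in the brightest 10%. Slc2a4, the insulin-regulated transporter GLUT4, had 7.49, 7.67 and 7.70, and Slc2a1, the basal transporter GLUT1, 7.86, 8.06 and 8.73. Pik3r1 had 9.42, 9.09 and 8.56, Akt2, the AKT form of insulin target tissue, 7.89, 8.00 and 7.95, and Insr, the insulin receptor, 7.59, 7.60 and 7.10. Hk2, a hexokinase of insulin-sensitive tissue, had a mean of 7.91. The liver transporter Slc2a2, the neuronal Slc2a3 and the fructose transporter Slc2a5 were not above the floor, nor were Hk3 and Irs4. Both GLUT1 and GLUT4 genes were bright, and Slc2a1 was highest on replicate 3.

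The glycolysis list had 22 of 23 genes above the floor and 11 in the brightest 10%. It also holds lactate transporters and subunits and kinases of pyruvate dehydrogenase, and shares Pdha1 with the citric acid cycle list. Besides Gapdh, Pkm, the pyruvate kinase, had 11.27, 11.34 and 11.42. Gpi1 had a mean of 11.34, Pgk1 11.28, Tpi1 10.47 and the pyruvate dehydrogenase subunit Pdhb 11.05. Ldha, the lactate dehydrogenase of glycolytic cells, had 7.05, 7.17 and 7.23, and the testis form Ldhc was not above the floor at 2.30. Slc16a3, a lactate exporter, had 4.25, 4.82 and 5.31, the widest range of the list at 1.06. Of the 22, 16 were highest on replicate 3 and 3 were lowest there.

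Proliferation genes were bright although the cells are described as fully differentiated. Of 34 genes, all 34 were above the floor and 27 in the brightest 10%, with a median of 8.26. Pcna, the sliding clamp of DNA replication, had 10.54, 10.57 and 10.35. The helicase genes Mcm2, Mcm3, Mcm4, Mcm5, Mcm6 and Mcm7 had means from 8.59 for Mcm7 to 9.32 for Mcm4. Mki67, which encodes the proliferation antigen Ki-67, had 9.26, 8.70 and 8.06. Top2a had 8.42, 7.87 and 7.57, Cdk1 8.32, 8.36 and 8.36, Ccnb1 7.26, 6.96 and 6.82, and Ccna2 9.13, 8.75 and 8.74. Genes of both DNA replication and mitosis were thus in the brightest 10% on average, and Mki67 and Top2a were highest on replicate 1 and lowest on replicate 3. The cell cycle inhibitors were bright too, with Cdkn1a, or p21, at 9.97, Cdkn1c, or p57, at 8.95 and Cdkn2a at 8.08. Ccnd1, cyclin D1, had 3.28, 3.20 and 2.73. In such bulk RNA, fewer cells that divide and less RNA in each cannot be told apart, and the same holds for every gene here.

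Markers of preadipocytes and fibroblasts gave 8 of 18 above the floor and 2 in the brightest 10%. Gsn, gelsolin, had a mean of 8.93 and Ly6a, the stem cell antigen Sca-1, 8.16. Prrx1 had 6.14, Pdgfra 4.79, Pdgfrb 4.76, Twist1 4.20, S100a4 3.98 and Twist2 3.80. Dlk1, or Pref-1, which is shut off as fat cells differentiate, was not above the floor at 2.77, 2.77 and 2.67. Cd34, Dpp4, Pi16, Fap, Thy1 and Tcf21 were not above it either. The mean level of the list was 3.83, 3.95 and 3.97 on replicates 1, 2 and 3.

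**Figure D4:**
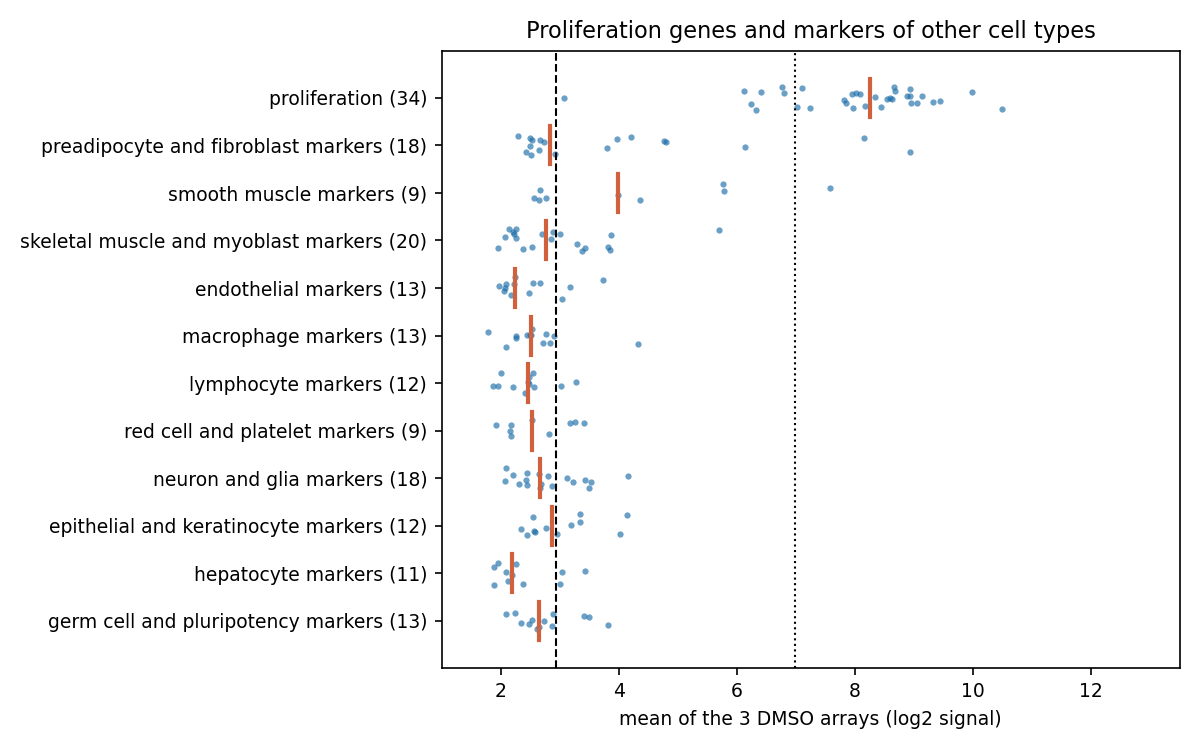
Mean log2 signal of the 3 DMSO arrays (horizontal axis) for each gene (blue point) of the proliferation list and 11 lists of other cell types (rows, number of genes in brackets), with the list median as an orange bar, the background floor dashed and the lower edge of the brightest 10% dotted. The proliferation genes centre on 8.26, whereas the endothelial median is 2.24 and the macrophage median 2.52, both left of the floor.

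Markers of cells that share brown fat with adipocytes in the animal were mostly at background. Of 13 endothelial genes, 3 were above the floor, Egfl7 at 3.74, Flt1 at 3.17 and Pecam1 at 3.04, and Cdh5, Kdr, Tek and Vwf were not. Of 13 macrophage genes, only Cd68 was above it, at 4.32, while Adgre1, Csf1r, Ptprc and Lyz2 were not. Of 12 lymphocyte genes, Nkg7 and Cd3g were above it, at 3.28 and 3.01. Of 9 red cell and platelet genes, 3 were, Hbb-bt at 3.41, Gp9 at 3.26 and Itga2b at 3.17. Against 46.8% over all genes, these 4 lists had 23.1%, 7.69%, 16.7% and 33.3% above the floor, and none of their genes was in the brightest 10%. Their list means per array lay between 2.40 and 2.67.

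Brown fat cells and skeletal muscle share precursors. Of 20 muscle and myoblast genes, 8 were above the floor, Des at 5.69, Acta1 at 3.86, Pax3 at 3.85, Tnnc2 at 3.82, Pax7 at 3.42, Myod1 at 3.37, Myog at 3.29 and Myl1 at 3.01. Myf5, the factor of those shared precursors, was not above the floor at 2.40, 2.68 and 2.50, nor were Ckm, Ttn and the myosins Myh1, Myh2, Myh3, Myh4 and Myh7. Of 9 smooth muscle genes, Acta2, the smooth muscle actin also made by fibroblasts, was in the brightest 10% with 7.35, 7.52 and 7.84. Mcam at 5.78, Cspg4 at 5.76, Smtn at 4.37 and Myh11 at 3.99 were above the floor, and Cnn1, Rgs5, Synpo2 and Lmod1 were not.

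Among unrelated cell types, 6 of 18 neuron and glia genes were above the floor, among them Map2 at 4.15, Syn1, Mbp, Gad2 and Slc17a7. Of 12 epithelial genes it was 6 (50%, against 46.8% over all genes and 58.4% over protein-coding genes). These were Krt10 at 4.14, Muc1 at 4.02, Krt8, Krt19, Krt1 and Cdh1. For hepatocytes it was 3 of 11, Apoa2, Ahsg and Apoa1, and for germ and pluripotent cells 3 of 13, Prm2, Dppa3 and Prm1. Alb, the albumin gene, had 2.27, 2.17 and 2.33, and Nanog 2.29, 2.41 and 2.35. The highest mean in these 4 lists was 4.15.

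Most members of several large families that serve other tissues were not above the floor. Of 35 bitter taste receptors, 0 were above the floor, and the brightest had 2.41. It was 8 of 54 for keratins, 8 of 57 for keratin-associated proteins, 4 of 42 for beta-defensins, 2 of 25 for placental prolactins and 2 of 19 for Wnt ligands. Of 98 potassium channel genes, 22 were above it, the brightest being Kcnk3 at 5.96, a channel known in brown fat cells. Of 101 cytochrome P450 genes it was 18, led by Cyp51, an enzyme of sterol synthesis, at 8.93. At the other end were families of every cell, with 47 of 47 Nduf genes, 75 of 77 mitochondrial ribosome genes and 37 of 39 proteasome genes above the floor.

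Dim signal does not show that a gene is unused, as genes that every cell needs make plain. Of 45 cytosolic ribosomal proteins, 43 were above the floor and 25 in the brightest 10%. Rps6 had 11.66 and Rpl4 11.63, yet Rplp0 had 3.13, 3.57 and 3.27, and Rps14, with 2.44, 2.89 and 2.64, and Rps2 were not above the floor. In this list 18 of 45 were given as cross-hybridising and 14 were placed outside their gene. Rps2 and Rps6 were among both, so their values are not readings at their own loci, whereas Rplp0 and Rps14 were among neither. Of 28 cytoskeleton genes, Vim, vimentin, had 10.58 and Actg1, gamma actin, only 3.64, 3.70 and 3.77. Of 27 translation factors, 26 were above the floor and 21 in the brightest 10%, while Pabpc1, the poly(A) binding protein, had 4.60. Gnas, with 3.18, is of this kind too. A gene such as Dio2 or Ucp3 not above the floor may therefore be unexpressed or poorly read by its probes, and these arrays do not separate the cases.

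The matrix list had 33 of 36 genes above the floor and 14 in the brightest 10%. Its bright members were mostly of the basement membrane around each fat cell and the layer next to it, with Lama4 at 9.09 on each array, Lamc1 at 9.26, Col6a1 at 9.48, Nid1 at 8.99, the last placed outside its gene, and Col4a1 at 8.36. Bgn, biglycan, had 9.60, 9.60 and 9.52. The fibrillar collagens were dimmer, with Col1a1 at 6.29, Col3a1 at 5.43 and Col1a2 at 4.63, and Dcn, decorin, had 3.45. Lum, lumican, was not above the floor at 1.66. Postn, periostin, had 6.21, 5.74 and 4.59, one of the 20 widest ranges among named genes.

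For iron and redox, 29 of 30 genes were above the floor and 22 in the brightest 10%. Fth1 had 12.27, 12.33 and 12.53, Cat, catalase, 11.74, 11.69 and 11.44, and Sod1 11.15, 11.10 and 11.42. Metallothioneins Mt2 and Mt1 had 11.62 and 10.37. Slc40a1, the iron exporter ferroportin, was not above the floor at 2.45, while Tfrc, the transferrin receptor for iron uptake, had 8.78, 8.49 and 8.13. Ferritin and the importer were bright and the exporter was at background.

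Of 25 stress and oxygen genes, all 25 were above the floor and 14 in the brightest 10%. Hspa8 had 10.66, Calr 10.52 and Hsp90b1 9.69. Atf4, the factor of the integrated stress response, had 9.25, 9.38 and 9.36, its target Asns 9.74, 9.73 and 9.55, and Ddit3, or CHOP, 7.65, 7.42 and 7.70. Hif1a had 6.67, 6.55 and 5.91, and Egln3, a prolyl hydroxylase and target of HIF, 7.41, 7.54 and 8.34. Hif1a was lowest and Egln3 highest on replicate 3.

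All 20 clock genes were above the floor, and Clock and Bhlhe40 were in the brightest 10%. Clock had 9.12, 8.83 and 7.58, a range of 1.54, and Nr1d2 5.81, 5.56 and 4.68. Arntl, the partner of CLOCK, had 7.05, 6.93 and 6.65, and its opponent Nr1d1 5.98, 6.18 and 6.21. Cry2 had 5.32 on each array. Of 30 listed nuclear receptors, some of them shared with the fat list, 16 were above the floor and only Rxra was in the brightest 10%. Pparg, with a mean of 10.05, is not part of this list. Nr1h2 had 6.83, Nr3c1, the glucocorticoid receptor, 6.55, Nr1h3 6.24 and Rara, the retinoic acid receptor, 5.21. Hnf4a, Nr1h4, Nr1i2, Nr1i3 and Nr5a2 of the liver, Esr2, Pgr, Rarb, Nr4a3, Nr5a1, Nr0b1, Nr0b2, Nr3c2 and Hnf4g were not above the floor.

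Among long or structural noncoding RNAs, 12 of 19 were above the floor and 5 in the brightest 10%, namely Rn7sk, Rmrp at 11.63, Malat1 at 10.67, Rpph1 at 9.82 and Neat1 at 7.72. Of the imprinted RNAs, H19 had a mean of 3.42 and Kcnq1ot1 3.07, and Meg3, Rian, Mirg and Airn were not above the floor. Xist, which silences an X chromosome in female cells, was not above it at 1.79, 1.93 and 2.11. On the Y chromosome, Eif2s3y had 7.25, 6.71 and 6.89, Ddx3y 7.27, 6.98 and 6.49, Uty 5.87, 5.44 and 4.89, and Kdm5d 4.62, 4.34 and 3.88. Sry was just above the floor, with 2.94, 2.99 and 3.04, and Zfy1, Zfy2 and Usp9y were not above it. Over all genes, 13.9% of protein-coding genes were in the brightest 10%, against 0.321% of genes that RefSeq calls long noncoding.

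Signals on the 3 arrays, which had been quantile normalized together, were closely correlated. Pearson's r over the 30860 genes was 0.992 between replicates 1 and 2, 0.986 between 1 and 3 and 0.988 between 2 and 3, across genes, which are not independent. Among genes above the floor, the median range was 0.32, the 95th percentile of the range 0.92 and the median SD 0.17. Bright genes varied less: over 10 the median range was 0.21 and 0 of 267 genes had a range above 1. Idh3g, Lama4, Mcm6 and Ndufs4 had the same value on each array to 2 decimals (10.63, 9.09, 8.93 and 7.20), and C3 had a range of 0.01. Equal values were common, since each pair of arrays shared 2384 to 2610 of them over the 30860 genes. Genes near the floor had them too, such as Pecam1 at 3.04 and Cnn1 at 2.77 on every array.

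Wide ranges came mostly from replicate 3. Among the 480 genes with a range above 1, replicate 3 was farthest from the middle value in 340 (70.8%), being low in 275 and high in 65, while replicate 1 was in 71 and replicate 2 in 68. Over all 14455 genes above the floor these shares were 43.7% for replicate 3, 31.8% for replicate 1 and 20.9% for replicate 2. Over pairs of arrays the median range was 0.19 without replicate 1, 0.24 without replicate 2 and 0.16 without replicate 3. The brightest 10% were little affected, since 2997 of the 3090 genes ranked in it without replicate 3 were in it with all 3 arrays.

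Leaving out predicted, microRNA and similar symbols, the widest range was that of AI987944, a protein-coding gene, with 5.04, 3.71 and 2.71. Yae1d1 had 4.80, 4.58 and 2.84, Iigp1, an interferon-induced GTPase, 4.24, 4.16 and 2.40, and Ifi211, another interferon gene, 6.51, 5.96 and 4.77. Postn, given above, was likewise low on replicate 3. Socs2, whose cluster lies outside its gene on chromosome 12, had 6.55, 5.96 and 4.87. Of the 20 widest, Rbm12b2, Ube2h, Zfp267, Bdp1, mt-Ty, Ascc3, Gdap10 and Polk were also low on replicate 3. The T cell receptor segments Traj6, with 2.14, 2.76 and 4.34, and Trav16, with 2.85, 2.40 and 4.54, were high on replicate 3. Both were above the floor on that array only, and the probes of Traj6 are given as cross-hybridising. mt-Tq was lowest on replicate 1 and Mettl7a3 on replicate 2. The means of all 20 lay between 3.08 and 6.04, below the brightest 10%.

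The departure of replicate 3 went with the span of a gene's transcript cluster on the genome. Genes above the floor were put into 5 groups of like size by this span. In the shortest group, up to 3347 bases, replicate 3 minus the mean of replicates 1 and 2 had a median of 0.10, in the next 0.09, then 0.03 and -0.04, and in the longest, from 52991 bases, it was -0.15. Replicate 2 minus replicate 1 had medians of 0, 0.05, 0.04, 0.01 and -0.01 in the same groups. Ranges above 1 were most frequent at both ends, with 165, 45, 53, 82 and 135 genes. The groups also differed in median signal, at 4.1, 4.8, 5.5, 5.8 and 5.6, and span and signal were not separated. The intron control features had medians of 2.68, 2.67 and 2.49 on replicates 1, 2 and 3, the exon controls 7.14, 7.16 and 6.99, and the poly-A spike controls 4.51, 4.63 and 4.83. Their part in the results was not tested.

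**Figure D5:**
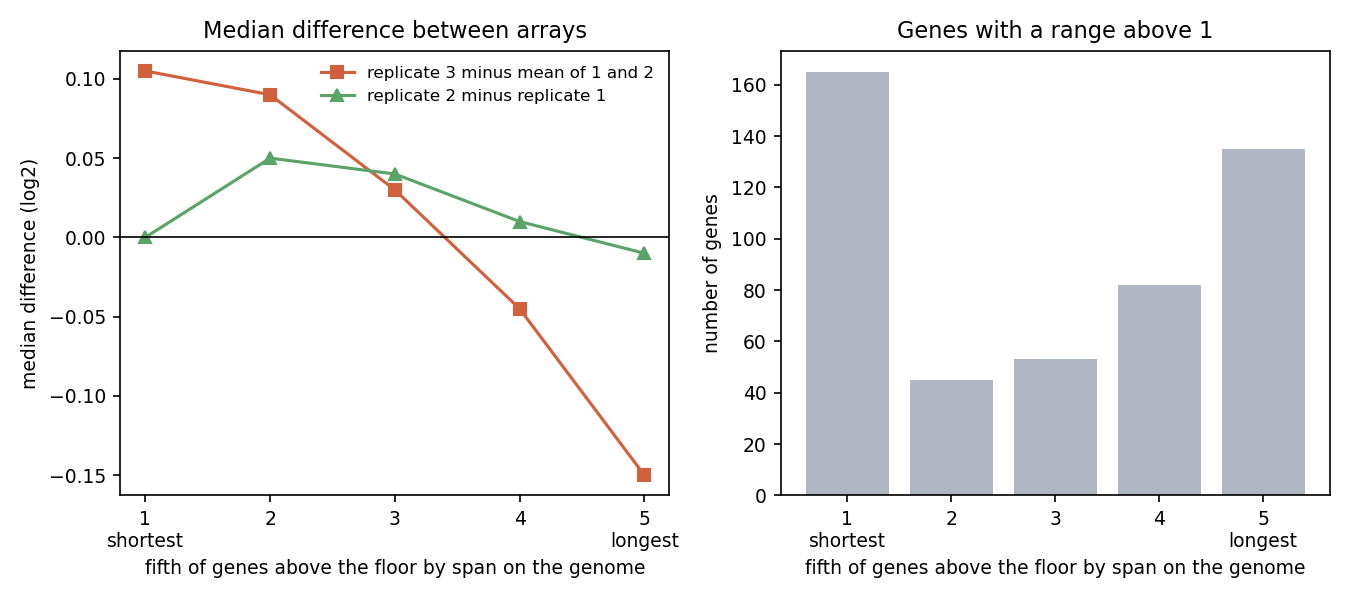
Left, median difference in log2 signal (vertical axis) between replicate 3 and the mean of replicates 1 and 2 (orange squares) and between replicates 2 and 1 (green triangles) in 5 groups of the genes above the floor by span on the genome (horizontal axis); right, number of genes with a range above 1 in each group. Replicate 3 is higher in short genes, by 0.10, and lower in long ones, by 0.15, and replicates 1 and 2 differ by at most 0.05.

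Gene lists differed on replicate 3, and not all of them by length. Cytosolic ribosomal proteins above the floor had clusters with a median span of 2248 bases, some of them placed outside their gene. They were highest on replicate 3 in 34 of 43 and lowest there in 0, with a median difference of 0.25. Respiratory chain genes, with a median span of 5800 bases, were highest on it in 39 of 54 and lowest in 5, with 0.13. Brown lineage and PGC-1 genes, with a median span of 86428 bases, were highest on it in 4 of 21 and lowest in 13, with -0.12. Other lists did not follow length in this way. Mitochondrially encoded proteins, with a median span of 1064 bases, were highest on it in 4 of 12 and lowest in 7, with -0.07. Adrenergic and cAMP genes, with 62425 bases, were highest on it in 12 of 27 and lowest in 9, and matrix genes, with 44659 bases, in 15 and 12 of 33, with 0.10 in both lists. Over all genes above the floor, 37.0% were highest and 35.7% lowest on replicate 3. The adrenergic and matrix counts were near these shares and are not read as a difference. Ppargc1a spans 113477 bases and was lowest on replicate 3, whereas Ucp1 spans 8109 bases and was highest there. The part of this pattern in the values of Ucp1 and Ppargc1a was not tested.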

How the data were processed

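Brown fat cells of C57BL/6 mice were treated for 8 h, and total RNA was hybridised to 9 whole-transcript mouse arrays, of which the 3 DMSO arrays are described. The deposited values are log2 signals. Per the file headers, the authors made them with background correction, quantile normalization over all arrays and median polish, with the annotation of NetAffx build 35 on mm10. The submitters' processing notes name Affymetrix Expression Console 1.41. Quantile normalization gives every array nearly the same distribution, so a change in total RNA cannot be seen.

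From 41345 features, the 33793 of the main design were kept, and the 32202 with a symbol gave 30860 genes. Where a symbol had several transcript clusters (772 symbols), the brightest one, averaged over the 9 arrays, was used. Symbols were updated by Entrez ID through RefSeq (25099 features matched, 1913 renamed). List genes were matched by symbol, with the file's names of mitochondrial genes put into the usual form, since matching by synonyms gave wrong genes. Mean, SD, range and rank over the 3 arrays were computed with Python 3.11.15, numpy 2.4.6 and pandas 2.3.3, and no test was made, since there is 1 group. The calculation was tested on simulated data.

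The members and gene lists were chosen with earlier results of these data known. Named are the label's markers, the 30 brightest genes, up to 6 bright and 3 dim members of each list (short lists in full), the 20 widest ranges, 5 steady genes, members of other cell type lists above the floor, and regulators below it. Gene families, promoters and motifs were chosen after the values were seen, as were other genes named for their range or function. The labels call the replicates technical and do not say whether they are separate wells or 1 RNA, so the spread may be technical only. The number of arrays limits the precision. Some genes that the rule names are not reported here.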

Additional observations from a re-analysis of the deposited data

How the results depend on the processing

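The number of genes above the background floor depends on where the floor is set. It was 14455 with the floor used, 11525 with the 99th percentile of the receptor genes, 8914 with the 95th percentile of the intron controls (4.56) and 22467 with the median of the antigenomic sets (2.23). With the intron floor, 218 genes with a range above 1 had replicate 3 as the farthest array, instead of 340. The median range was 0.16 to 0.24 when 1 replicate was left out, against 0.32 with all 3, since a range over fewer arrays is narrower by construction. Other settings included the lowest cluster, the removal of cross-hybridising genes, median centring, renewed quantile normalization, linear means and each left-out replicate. Under these, the number of list genes in the brightest 10%, 365, stayed within its limit of 1.5 times. The levels of Fabp4, Adipoq, Pparg, Ucp1 and Ppargc1a stayed within 1 SD, but most of these settings could not show otherwise. Median centring leaves a mean over all 3 arrays unchanged, and leaving out 1 replicate cannot move it by 1 SD. The marker values were the same under the lowest cluster and without cross-hybridising genes. Of the counts of single lists, those above the floor moved by over 1.5 times in 38 cases and stayed within it in 482, mostly where the floor itself changed, and those in the brightest 10% moved in 7 and stayed in 353. The ribosomal proteins in the brightest 10% were 25, but 10 without cross-hybridising genes and 13 without genes placed outside their locus, a choice made after the data were seen. No paired analysis was possible because all results come from 1 group without a test. Signal near background limits every call at the floor.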
